A study of Homo sapiens with 12 samples.

Results

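The genes described here were 9 components of transforming growth factor beta (TGF-beta) signaling, TGFB1, LTBP3, TGFBR1, TGFBR2, SMAD2, SMAD3, SMAD4, SMAD7 and SKI, taken by name from 20037 protein-coding genes. They were followed in lists of N4-acetylcytidine (ac4C) peaks from SW620, a human colorectal cancer cell line kept in L15 medium. The lists came from 3 control libraries (shControl, genotype given as WT) and 3 NAT10-knockdown libraries (shNAT10), which both carried an shRNA construct. By the study's methods these were lentiviral lines selected with puromycin, and the labels do not say which NAT10 shRNA was used. NAT10 is the acetyltransferase that writes ac4C, so the comparison addresses whether the marked stretches of these transcripts differ when NAT10 is depleted. In acetylated RNA immunoprecipitation sequencing (acRIP-seq), an antibody against ac4C pulls down RNA fragments, and a peak is a stretch of the genome where these fragments pile up. A peak was counted for a gene when its midpoint lay in the gene's GRCh38 span on the same strand. All 9 genes had at least 1 peak, against 12282 of all protein-coding genes, and 7 of the 9 had a peak in at least 3 libraries and were tested among 9119 such genes. The exceptions were SMAD4 and LTBP3.

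As background, TGF-beta is secreted in a latent complex with its own propeptide and a latent TGF-beta binding protein such as LTBP3, which ties it to the extracellular matrix. Released ligand binds the type II receptor TGFBR2, which phosphorylates the type I receptor TGFBR1. TGFBR1 then phosphorylates SMAD2 and SMAD3, which join SMAD4 and act on target genes in the nucleus, while SMAD7 blocks the receptor and SKI holds SMAD complexes in a repressed state. In the intestinal epithelium the pathway restrains growth, and its receptors and SMADs are recurrently inactivated in colorectal cancer.

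The 5 peaks whose 5′ edge fell in a RefSeq window around an annotated transcript start show what kind of sequence these stretches open with. Each line gives the first 30 bases of the listed peak in the direction of transcription, read from the GRCh38.p14 windows, which reach from 250 bases before to 50 bases after a start. Capitals mark cytosines, the base that can carry the acetyl group, and a capital is not a measured ac4C site.
TGFB1, chr19:41353882-41353911, minus strand: CCttCgCgCCCtgggCCatCtCCCtCCCaC
LTBP3, chr11:65558199-65558228, minus strand: CttgCtCCggCCtCCtCgCtCCtgCCtgag
TGFBR1, chr9:99105089-99105118, plus strand: aaagggCCggagCgaggCCgCCgCggCggC
TGFBR2, chr3:30606502-30606531, plus strand: ggagagggagaaggCtCtCgggCggagaga
SMAD3, chr15:67166531-67166560, plus strand: aCaCatttCagaCttgggagttgatCCggt

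The openings ran from cytosine-rich to cytosine-poor. TGFB1 held 17 cytosines in 30 bases, a number reached by 1.34% of the 35116 RefSeq windows in their first 30 transcribed bases, and LTBP3 held 14, reached by 7.18%. TGFBR1 held 10, close to the upper quartile of all windows, which was 10 around a median of 8. SMAD3 held 6 and TGFBR2 held 4, and 80.0% and 94.2% of windows had as many or more. The TGFBR2 peak opened 99 bases before the nearest start in the RefSeq windows, so its 30 bases were set against a different position. The LTBP3 peak and this SMAD3 peak began exactly at an annotated start, that of SMAD3 being an internal start 100929 bases into the gene. A peak is much longer than 30 bases, so these letters describe where it opens and no more.

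The control lists held 18241, 22619 and 20063 peaks and the knockdown lists 28752, 17877 and 19047. Knockdown replicate 1 was the longest list and stood apart in several of the genes below. The lists carry no read counts, which leaves the depth unknown, and no input library entered the comparison. Each score is the authors' own value. It was used only as a percentile, the rank of a peak among all peaks of its library, because scores pile up at a ceiling of 3100, held by 7.61% to 13.7% of peaks depending on the library. Peaks at 3100 sit at percentiles between 92.7 and 96.0 that differ between libraries only with the shares of peaks at and above 3100. They have no order among themselves. Of 12 colorectal epithelial marker genes, 8 had a peak and 6 had one in all 6 libraries (EPCAM, CDX2, VIL1, KRT8, CDH1 and HNF4A). The markers CDX1, KRT18, KRT20 and GPA33 had none. No leukocyte marker of 4 had a peak, 1 of 5 fibroblast markers did (COL1A1, with 0, 1 and 3 peaks in control and 2, 0 and 0 in knockdown), and 2 of 3 endothelial markers did (VWF and CDH5). The targeted gene NAT10 had 1, 0 and 2 peaks in control and 2, 0 and 1 in knockdown, and a peak number does not measure the amount of its mRNA.

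The 9 genes together held 103 peaks, none of them shared with another gene. Summed over the genes, the totals were 15, 16 and 14 peaks in control replicates 1 to 3 and 26, 18 and 14 in knockdown replicates 1 to 3. The means of 15 ± 1 and 19.3 ± 6.11 (control and knockdown, SD, n = 3 each) gave a difference of 4.33 that lay within the spread of the knockdown libraries. The difference was 1.0 without knockdown replicate 1 and 7.0 without knockdown replicate 3. It was 1.67 among the 50% of peaks with the highest scores and 2.0 at equal list lengths. Scaled to 10000 listed peaks, control replicates gave 8.22, 7.07 and 6.98 and knockdown replicates 9.04, 10.1 and 7.35, so the scaled ranges overlapped as well. The number of these genes with a peak was 7 in each control library and 8, 8 and 7 in the knockdown libraries. Fewer peaks in a gene can mean less ac4C, less of its mRNA or a shorter list, and the share of each was not tested.

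**Figure D1:**
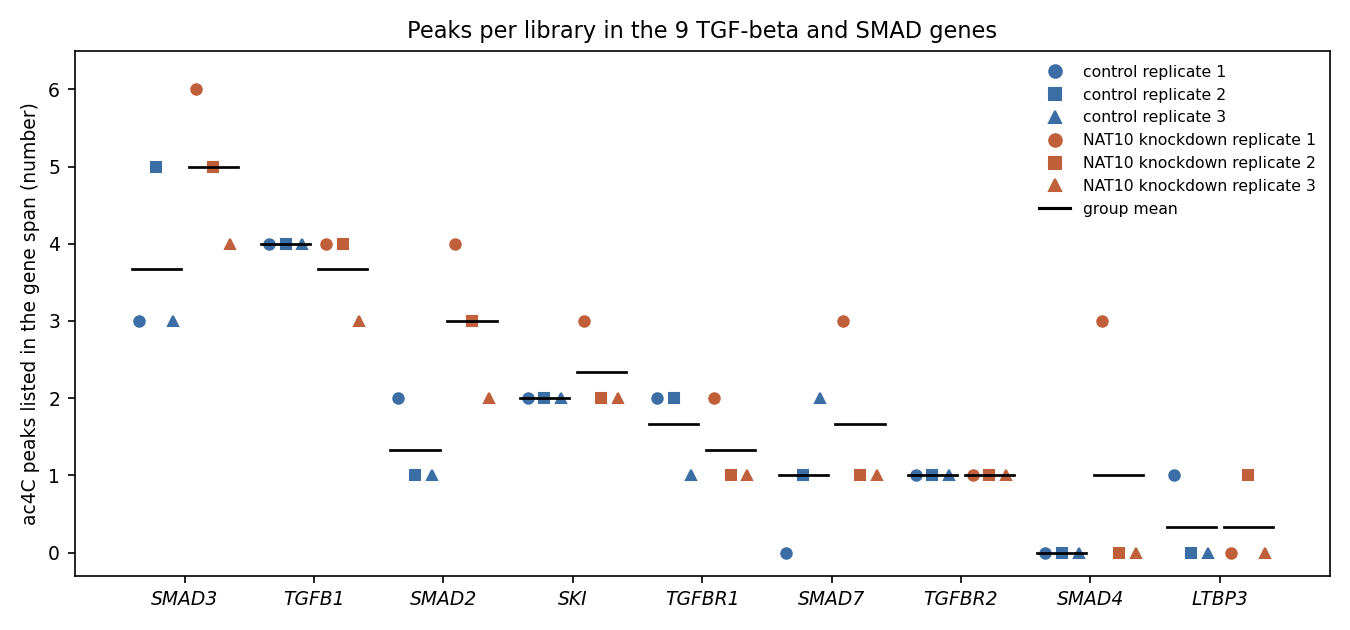
Number of ac4C peaks listed in the span of each gene (y axis) for the 9 genes (x axis), 1 symbol per library, blue for control and orange for NAT10 knockdown, with a black bar at each group mean. The control and knockdown symbols overlap in range in all 9 genes, and the 3 peaks of SMAD4 belong to knockdown replicate 1 alone.

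None of the 9 genes had peak numbers that separated the groups. Over the 9119 genes tested, 0.877% had more peaks in every control than in any knockdown library and 2.12% had more in every knockdown library. None of the 9 was listed throughout one group and missing throughout the other, a pattern that 0.45% of genes showed for control and 0.493% for knockdown. With 3 against 3 libraries the smallest two-sided exact permutation p is 0.1, so no gene could pass 0.05, and 273 genes reached 0.1 with a lowest adjusted p of 1. The smallest p among the 7 tested genes was 0.2 (exact permutation test), for SMAD2. The labels do not say whether replicates were separate cultures, so p measures only the spread between these libraries.

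Among the ligand genes, TGFB1, the secreted ligand itself, had nearly the same number of peaks in each library. It listed 4 peaks in every control library and 4, 4 and 3 in the knockdown libraries (4 ± 0 against 3.67 ± 0.58, SD, n = 3 each, exact permutation p = 1). It also had the highest density, 1.62 peaks per 10 kb of span against 0.0912 to 0.429 in the other 8 genes. The gene lies at chr19:41330323-41353922 on the minus strand and spans 23.6 kb. Numbering merged regions from the 5′ end of a gene, its first region, chr19:41352690-41353911, began 11 bases after the annotated gene start, was 1222 bases long and scored exactly 3100 in all 6 libraries. It is the region that opens with the cytosine-rich stretch shown above.

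The other 3 TGFB1 regions lay further along the gene. The second, chr19:41348295-41348455, ranked at percentiles 83.2, 67.1 and 75.1 in control and 40.6, 77.4 and 82.3 in knockdown. Knockdown replicate 1 was the low library there, and without it the difference (knockdown minus control) turned from -8.38 to 4.71 percentile points. The third region, chr19:41344747-41344864, was a weak one, with percentiles of 30.4, 38.0 and 33.3 in control and 32.0 and 41.1 in knockdown, and was not listed in knockdown replicate 3. The most distal, region 4 at chr19:41330323-41331210, ran to the 3′ end of the span and ranked at 86.6, 87.2 and 99.4 in control and 92.7, 84.8 and 81.0 in knockdown. Its upstream edge was the same in all 6 libraries, while its downstream edge took 5 positions. It scored 3116.71 in control replicate 3 and 3100 in knockdown replicate 1, so part of the gap between 99.4 and 92.7 comes from ties. The mean percentiles of 91.1 ± 7.23 and 86.2 ± 5.98 (SD, n = 3 each) gave a difference of -4.93 points with an exact permutation p of 0.4 and an adjusted p of 0.909. It was -8.21 without knockdown replicate 1, -0.755 without control replicate 3 and -2.35 without knockdown replicate 3. Without knockdown replicate 1 the control percentiles of this distal region were all above the knockdown percentiles, a pattern that 13.8% of the 8239 regions compared in those 5 libraries also showed.

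LTBP3, the matrix anchor of the latent ligand (chr11:65538559-65558359, minus strand, 19.801 kb), had a single region. It was listed in control replicate 1 and knockdown replicate 2 only, with the same start and end, chr11:65557629-65558228, and a score of 3100 in both. LTBP3 was thus either absent from a list or in its top-scored tier. In the other 4 libraries the depth behind this absence is unknown.

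Both receptor genes had a peak near the gene start in all 6 libraries. TGFBR2, the ligand-binding type II receptor (chr3:30606356-30694142, plus strand, 87.787 kb), had exactly 1 peak in each library, always chr3:30606502-30606977, which began 146 bases into the gene. It ranked at percentiles 87.3, 89.7 and 76.2 in control and 82.9, 81.3 and 83.7 in knockdown. Control replicate 3 was the lowest, the group ranges overlapped, and the means of 84.4 ± 7.17 and 82.6 ± 1.19 (SD, n = 3 each) differed by -1.77 points (exact permutation p = 0.8, adjusted p = 0.991). Without control replicate 3 both control values exceeded all knockdown values, as in 8.98% of the 8366 regions compared in those 5 libraries, and without control replicate 2 the difference was 0.859.

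TGFBR1, the signaling type I receptor (chr9:99103647-99154192, plus strand, 50.546 kb), listed 2, 2 and 1 peaks in control and 2, 1 and 1 in knockdown (1.67 ± 0.58 against 1.33 ± 0.58, SD, n = 3 each, exact permutation p = 1). Its constant region, chr9:99105089-99105302, began 1442 bases from the outermost annotated start and 6 bases from another annotated start. It ranked at 66.0, 77.7 and 54.4 in control and 76.4, 65.2 and 67.2 in knockdown, lower than those of the TGFBR2 region in every library. The difference of 3.54 points lay within the spread of the control libraries, and without control replicate 3, the lowest of them, it was -2.25. A second region, chr9:99128836-99129100, was listed in control replicates 1 and 2, at percentiles 24.5 and 30.9, and in no knockdown library. Without control replicate 3 it counted as control-only, as 2.19% of the 23057 regions compared in those 5 libraries did.

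**Figure D2:**
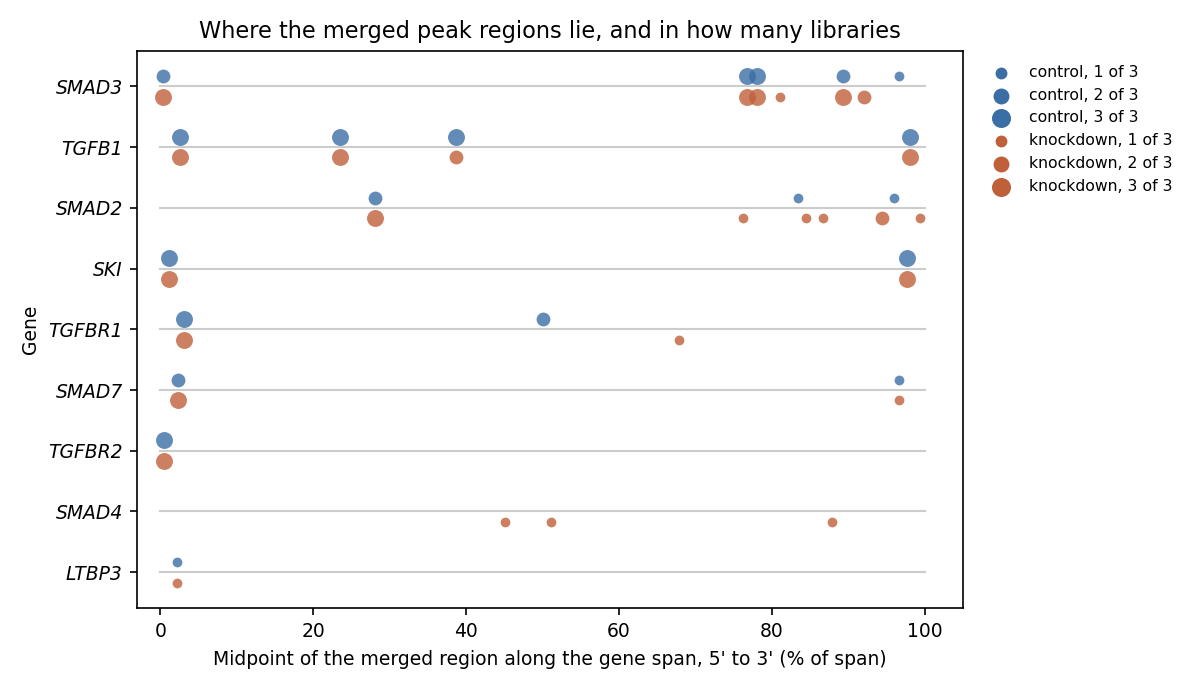
Midpoint of each merged peak region along its gene from the 5′ end (0%) to the 3′ end (100% of the span, x axis) for the 9 genes (y axis), with blue dots above each line for control and orange dots below for NAT10 knockdown, sized by the number of libraries out of 3. SMAD2 and SMAD4 have no region near the gene start, whereas TGFBR2 and LTBP3 have no other.

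The receptor-activated SMADs differed in layout. SMAD3 (chr15:67065602-67195169, plus strand, 129.568 kb) had the highest mean over the 6 libraries, 4.33 peaks against 3.83 in TGFB1, although TGFB1 listed more in control replicates 1 and 3. SMAD3 listed 3, 5 and 3 peaks in control and 6, 5 and 4 in knockdown. The means of 3.67 ± 1.15 and 5 ± 1 (SD, n = 3 each) gave an exact permutation p of 0.3 and an adjusted p of 1. Control replicate 2 was the control library inside the knockdown range, and without it the groups did not overlap, as in 4.95% of the 9119 genes in that direction.

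At the SMAD3 gene start, the region chr15:67065845-67066360 scored 3100 in the 5 libraries that listed it and was missing from control replicate 3. The other 6 SMAD3 regions lay at least 99293 bases into the gene. Of these, chr15:67164895-67165088 ranked high in every library, at 88.8, 83.7 and 85.5 in control and 92.7, 88.3 and 84.8 in knockdown. Its means of 86.0 ± 2.58 and 88.6 ± 3.98 (SD, n = 3 each) differed by 2.64 points (exact permutation p = 0.5, adjusted p = 0.933), and by 0.586 to 4.56 points with 1 library left out (without knockdown replicates 1 and 3).

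The next region, chr15:67166531-67166853, is the one that began at an internal annotated start. It ranked at 32.1, 44.2 and 44.5 in control and 69.6, 37.4 and 57.7 in knockdown. With all 6 libraries this was the widest gap between group means among the 7 regions compared by rank in these genes, 40.3 ± 7.06 against 54.9 ± 16.3 (SD, n = 3 each), or 14.6 points. The gap was 7.24 points without knockdown replicate 1 and 23.4 without knockdown replicate 2. It was not the widest without knockdown replicate 1, where TGFB1 region 4 differed by -8.21, or without knockdown replicate 3, where TGFB1 region 2 differed by -16.1 against 13.2. Knockdown replicate 2 fell inside the control range, so the groups overlapped (exact permutation p = 0.3, adjusted p = 0.884). Without knockdown replicate 2 they did not, as in 12.9% of the 8266 regions compared in those 5 libraries. The remaining SMAD3 regions were listed in 1 to 5 libraries. Of these, chr15:67184727-67184864 was listed in knockdown replicates 1 and 2 only, at percentiles 32.2 and 6.21, and counted as knockdown-only once knockdown replicate 3 was left out, as 2.9% of the 23450 regions compared did.

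SMAD2 (chr18:47808957-47930872, minus strand, 121.916 kb) listed 2, 1 and 1 peaks in control and 4, 3 and 2 in knockdown. The ranges touched at 2, and the means of 1.33 ± 0.58 and 3 ± 1 (SD, n = 3 each) gave the smallest p of the 9 genes, 0.2 (exact permutation test, adjusted p = 1). Without control replicate 1 or knockdown replicate 3 the groups did not overlap, as in 3.38% and 3.89% of the 9119 genes. These peaks were scattered over 8 regions, of which 6 were listed in 1 library each.

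The most constant SMAD2 region, chr18:47896521-47896811, lay 34061 bases into the gene. It ranked at 60.1 and 48.8 in control replicates 1 and 3 and at 52.1, 18.5 and 18.3 in the knockdown libraries, with no peak in control replicate 2. A region toward the 3′ end, chr18:47815557-47816084, was listed only in knockdown replicates 1 and 3, at 41.1 and 29.0, and counted as knockdown-only once knockdown replicate 2 was left out, as 3.32% of the 23676 regions compared did. When only the 50% of peaks with the highest scores were kept, SMAD2 listed 1, 0 and 0 peaks in control and 1, 0 and 0 in knockdown, so the excess in the knockdown libraries lay among low-ranked peaks. SMAD3 kept 2, 2 and 1 peaks in control and 4, 2 and 3 in knockdown under the same limit. With every list limited to its 17877 best-scored peaks, SMAD2 listed 2, 0 and 1 in control and 3, 3 and 2 in knockdown. Its difference was then 1.67, as with the full lists.

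SMAD4, the shared partner of SMAD2 and SMAD3 (chr18:51030213-51085042, plus strand, 54.83 kb), had 3 peaks in knockdown replicate 1 and none in the other 5 libraries. The 3 peaks ranked at 18.2, 21.0 and 5.40 within that library, which was the longest list. When every list was limited to its 17877 best-scored peaks, SMAD4 had no peak at all. SMAD4 therefore gave no value in control, and a peak absent from a list is no evidence that its mRNA was unmarked.

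The inhibitors were SMAD7 and SKI. SMAD7, which blocks the type I receptor (chr18:48919853-48950965, minus strand, 31.113 kb), listed 0, 1 and 2 peaks in control and 3, 1 and 1 in knockdown (1 ± 1 against 1.67 ± 1.15, SD, n = 3 each, exact permutation p = 0.7). Its start region, chr18:48949812-48950711, began 254 bases into the gene and had the same start and end in all 5 libraries that listed it. It was absent from control replicate 1, ranked at 79.2 and 81.4 in control replicates 2 and 3, and ranked at 92.7, 99.7 and 73.2 in knockdown. The value in knockdown replicate 2 was the highest of any peak in the 9 genes, and that in knockdown replicate 3 was below both control values. The scores were 3100 in knockdown replicate 1 and 3157.52 in knockdown replicate 2, so part of the gap between 92.7 and 99.7 comes from ties. A second region at the 3′ end, chr18:48919853-48921910, was listed in control replicate 3 and, as 2 peaks, in knockdown replicate 1.

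SKI, the nuclear corepressor (chr1:2228319-2310213, 81.895 kb), listed 2 peaks in every library except knockdown replicate 1, which listed 3. All 13 of its peaks were on the plus strand. The start region, chr1:2228695-2229735, began 376 bases into the gene, kept the same 1041-base extent and scored 3100 in all 6 libraries, as the start region of TGFB1 did. The other, chr1:2306577-2310119, lay at the 3′ end and at 3543 bases was the longest region of the 9 genes. It ranked at 80.8, 94.8 and 93.2 in control and 92.7, 94.0 and 93.2 in knockdown, and in 5 libraries it was at 3100. The third peak of knockdown replicate 1 arose because this region was listed there in 2 pieces, so the extra peak marks no extra location. Control replicate 1 was the low library, and without it the difference turned from 3.69 to -0.716 points. The 5 libraries left were all at 3100, so -0.716 reflects only the shares of peaks at and above 3100 in each library and no change in score.

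Merged over the libraries, the 103 peaks formed 31 regions, of which 9 were present in all 6 libraries (29.0%, against 21.5% of the 40623 regions of all genes) and 12 in a single library (38.7%, against 39.0%). Of those 12, 7 belonged to knockdown replicate 1, as did 7007 of the 15829 single-library regions of all genes. Of the 9 shared regions, 7 had identical start and end in all 6 libraries (77.8%, against 70.5%), which is near the share over all genes. No region of the 9 genes was listed throughout one group and missing throughout the other. Among 19133 regions found in at least 3 libraries, 0.711% were control-only and 1.76% knockdown-only.

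Of the 9 regions in all 6 libraries, those at the start of TGFB1 and SKI were at 3100 throughout and were not compared by rank. The other 7 showed no separation of the groups, while among 7887 regions compared 4.35% ranked higher in every control library and 7.95% in every knockdown library. The smallest exact permutation p among the 7 was 0.3 and the lowest adjusted p was 0.884. Their median difference of 2.64 percentile points stood beside a median of 2.01 over all regions compared. The mean percentile over all 9 was 79.6, 81.6 and 79.4 in control and 81.5, 79.6 and 81.8 in knockdown, or 80.2 ± 1.17 against 81.0 ± 1.19 (SD, n = 3 each). This mean includes the start regions of TGFB1 and SKI, whose percentiles differ between libraries only with the shares of peaks at and above 3100.

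**Figure D3:**
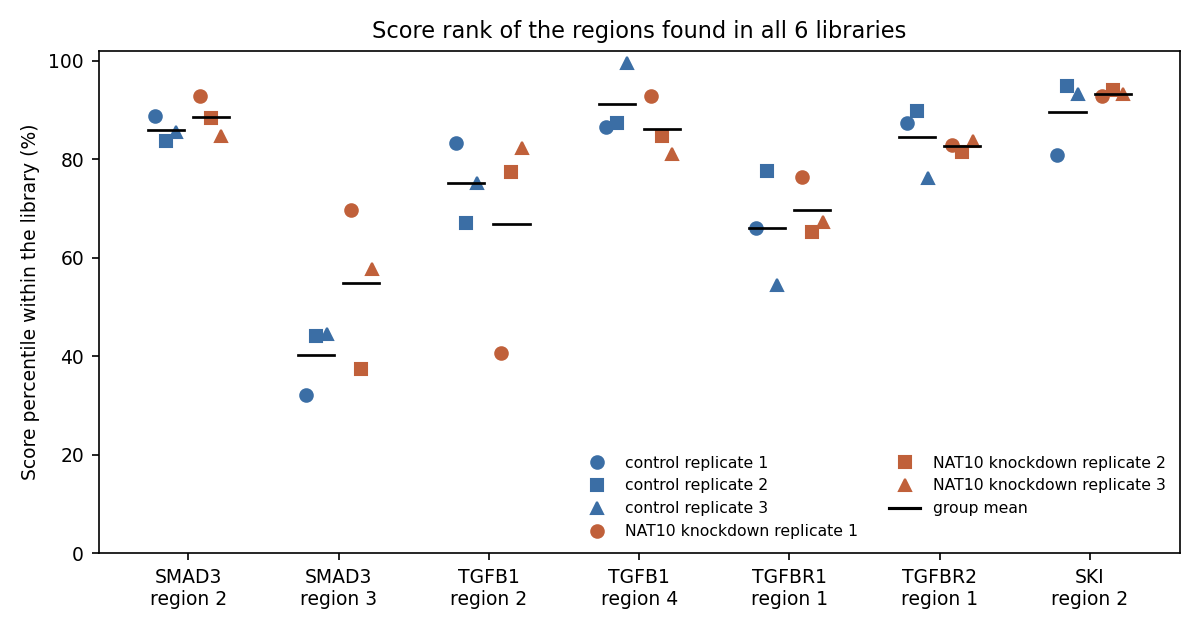
Score percentile within each library (y axis, 0 to 100%) of the 7 regions that were present in all 6 libraries and not at the ceiling score throughout (x axis), 1 symbol per library, blue for control and orange for NAT10 knockdown, with black bars at the group means. Every region has overlapping groups, and SMAD3 region 3 shows the widest gap between means, 40.3 against 54.9.

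Most of the 9 genes had a peak near the gene start, a share near that over all genes with a peak. Their start peaks ranked high. Peaks whose 5′ edge lay within 1500 bases of the gene start, a window chosen after the values were seen, were present in 7 of the 9 genes (77.8%, against 63.4% of all genes with a peak). SMAD2 and SMAD4 lacked one. All 36 such peaks ranked in the upper 50% of their library, between percentiles 54.4 and 99.7, and 20 of them were at 3100 (55.6%). Over all genes, 65.2% of such peaks were in the upper 50% and 17.0% were at 3100. The median percentile was 92.7 for the start peaks and 41.1 for the other 67 peaks of the 9 genes, against 64.5 and 44.1 over all genes. Start peaks were also longer, with a median of 600 bases against 251 (308 against 176 over all genes), and length and score are not independent measures of a peak. The 36 peaks came from 7 regions seen repeatedly and are not 36 independent observations.

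The number of start peaks ranged from 5 to 7 over the libraries, and that of the other peaks from 8 to 20. Control replicates 1 to 3 held 6, 6 and 5 start peaks and knockdown replicates 1 to 3 held 6, 7 and 6 (5.67 ± 0.58 against 6.33 ± 0.58, SD, n = 3 each). Away from the start there were 9, 10 and 9 peaks in control and 20, 11 and 8 in knockdown (9.33 ± 0.58 against 13 ± 6.25, SD, n = 3 each). The larger summed number in knockdown replicate 1 thus lay away from the gene starts. Of the regions away from the start and listed in all 6 libraries, those at the 3′ ends of TGFB1 and SKI and the SMAD3 region at chr15:67164895-67165088 ranked in the upper 50% of every library.

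**Figure D4:**
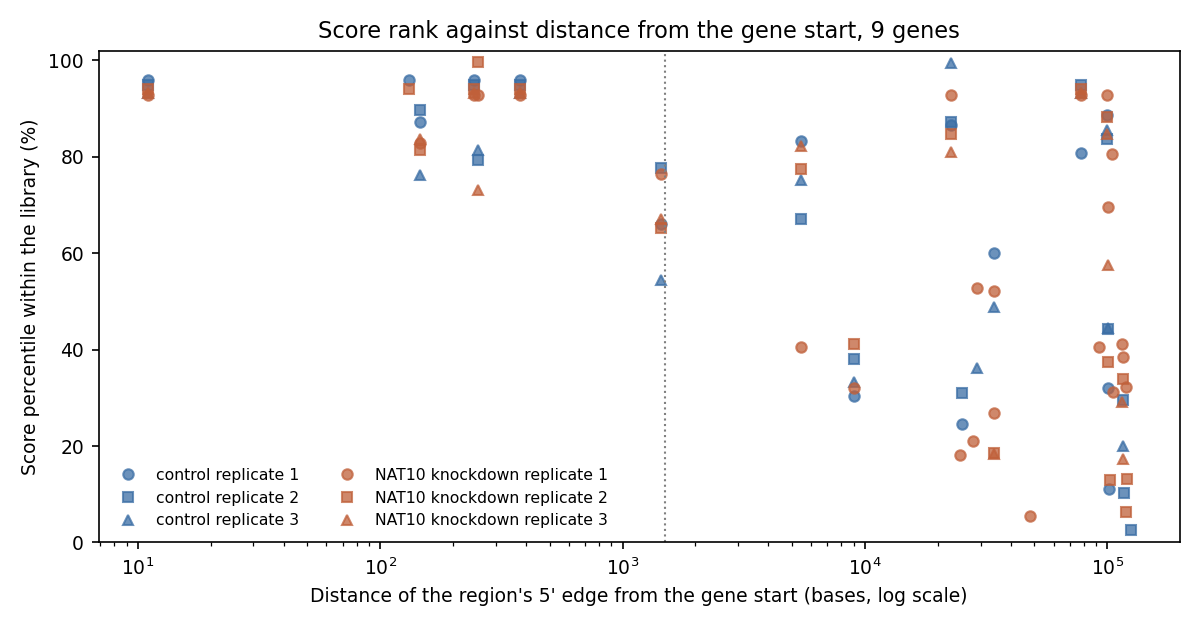
Score percentile within the library (y axis, 0 to 100%) of each region in each library against the distance of the region's 5′ edge from the gene start in bases (x axis, log scale) for the 9 genes, with 1 symbol shape per replicate, blue for control and orange for NAT10 knockdown. All symbols left of the dotted line at 1500 bases lie at or above 54.4, whereas those to its right reach from 2.64 to 99.4.

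The wider pathway, 72 further genes listed by role, gave a like picture. Of these, 57 had a peak, 34 had one in all 6 libraries and 47 were tested. In 1 of them, THBS1, an activator of latent TGF-beta, the groups were separated, with 1 peak in each control and none in any knockdown library, and no pathway gene had more peaks in every knockdown library. Set against 1 of 47, 0.877% of all genes tested had more peaks in every control library and 0.45% had peaks there alone. Set against 0 of 47, 2.12% had more in every knockdown library. A single gene, or none, makes no result about the list. The median difference over the 47 was 0, as it was over all genes tested. Scaled to 10000 listed peaks, control replicates held 49.3, 47.7 and 44.4 peaks over the 72 genes and knockdown replicates 48.3, 49.8 and 45.2.

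By role, the counts of genes with a peak were 10 of 14 ligand and latent complex genes, 5 of 5 activators, 10 of 11 receptors and coreceptors, 5 of 6 SMADs and adaptors, 6 of 12 repressors, 8 of 8 ubiquitin and phosphatase regulators, 5 of 6 nuclear partners and 8 of 10 target genes. Some of these genes, such as the nuclear partner FOXH1, had their strand taken from their peaks. Such peaks could belong to an overlapping gene, and these counts could then be too high. The latent binding protein LTBP4 listed 6, 7 and 5 peaks in control and 6, 4 and 5 in knockdown, or 1.5 peaks per 10 kb of span against 0.168 in its relative LTBP3. The activin type I receptor ACVR1B listed 2, 2 and 2 in control and 5, 3 and 2 in knockdown. The SKI relative SKIL had no peak in any library, and neither had SMAD9. CREBBP, a nuclear coactivator of SMAD complexes, had the most peaks of the 72 genes, 10, 9 and 12 in control and 14, 12 and 13 in knockdown, with ranges that touched at 12 (exact permutation p = 0.2, adjusted p = 1). In the other roles the genes with most peaks were FURIN, which cleaves the TGF-beta precursor, SMAD5, the repressor ZEB1, the ubiquitin ligase NEDD4L, and, with 14 peaks each, the targets CDKN1A and SNAI1, and in all of these the groups overlapped.

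The genes most like SMAD3 in their 6 peak numbers, by summed absolute difference over the 6 libraries, were PCSK5 with a difference of 0, RANBP10 with 1 and CERK with 2, the first by symbol of several at that value, since 13 genes were at 2 or below. For TGFB1, 6 genes had the same 6 numbers, of which the first by symbol were GIPC1, LRRC20 and PIAS4.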

How the data were processed

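Peak lists of 6 ac4C immunoprecipitation libraries were analysed without the 6 input libraries. The authors deposited 1 list per library with chromosome, start, end, strand and a score per peak, and the peak names are those of MACS. The genome build, GRCh38, is named in the submitters' processing notes. The aligner, caller version and settings are not given in the sources used here. Scores ran from 50 to 3233.06 and were used only as ranks within a library (ties averaged).

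Gene spans came from the RefSeq GRCh38.p14 table, with strand from its promoter table for 15843 genes. For the other 4194, SKI among them, the strand of most peaks in the span was taken. For such genes the counted peaks could belong to an overlapping gene on the opposite strand. Peaks sharing at least 1 base on a strand were merged into regions. Exons, coding sequences and UTRs were not annotated here, so no peak is placed in one. SKI was outside the promoter table, which held 8 of the 9 genes. Of the pathway symbols, all 72 matched.

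Groups were compared by two-sided exact permutation tests with Benjamini-Hochberg adjustment over all genes or regions tested, and the code was tested on simulated lists. All 9 members were named, with pathway genes that separated the groups or had most peaks in their role. The members and lists were chosen with earlier results of these data known. Alternatives were score filters, equal list lengths, strand and assignment rules, region coverage, a replicate block and each library left out. Python 3.11.15, numpy 2.4.6, pandas 2.3.3 and scipy 1.17.1 were used.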

Additional observations from a re-analysis of the deposited data

How the results depend on the processing

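The lists give no depth, so a missing peak sets no limit on ac4C, and 3 libraries a group leave 0.1 as the smallest exact permutation p. Of 100 alternative values for the main counts and differences, 80 stayed within the set margin (a factor of 1.5 for counts, 1 SD for sums and means) and 20 moved. Of 190 differences of single genes and regions, 152 kept their sign, 18 stayed at 0, 10 became 0, 6 left 0 (all LTBP3) and 4 reversed. Those that became 0 were of SMAD2, SMAD4, SMAD7, SKI, TGFB1 and TGFBR1, in peak number. The cause was not tested for any of these. Keeping the 50% of peaks with the highest scores moved the number of separated pathway genes from 1 to 3, and equal list lengths moved it to 2. These counts run over all 72 genes, and no share over all genes is at hand for these settings. Keeping regions at 3100 in the rank comparison, an alternative chosen after seeing the data, still gave 0 separated regions.

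With each library left out in turn, separated genes among the 9 ranged from 0 to 1, as did their regions in one group only and their regions separated by rank. Separated pathway genes, counted over all 72, ranged from 2 to 4. In those settings 1.25% to 5.14% of the 9119 genes had more peaks in every control library. The share with more in every knockdown library was 2.76% to 5.12%. The mean percentile difference over shared regions ranged from -1.21 (without control replicate 2) to 1.59 (without control replicate 1), around 0.744. Differences of single regions ranged from -0.716 to 6.28 for SKI region 2, from -5.85 to 0.859 for TGFBR2 region 1, from -2.25 to 9.36 for TGFBR1 region 1 and from -16.1 to 4.71 for TGFB1 region 2. They kept their sign in SMAD3 region 2 (0.586 to 4.56), SMAD3 region 3 (7.24 to 23.4) and TGFB1 region 4 (-8.21 to -0.755). The -0.716 of SKI region 2, counted above as reversed, rests only on the shares of peaks at and above 3100.

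Same-numbered libraries did not deviate together in peak number (correlations across genes of -0.189, -0.135 and -0.00296, and no library correlated best with its own number). This check cannot show whether same-numbered libraries shared a culture or batch, and the labels do not say, so pairing is unknown. Under the replicate block, 1 of the 9 genes (SMAD2, more peaks in knockdown) and 3 pathway genes (THBS1, USP15 and CREBBP) differed one way in all 3 pairs, where the smallest exact permutation p is 0.25. Over the 9119 genes, 3.91% had more peaks in knockdown in all 3 pairs and 1.52% had more in control.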

Other observations

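On the strand opposite to the 9 genes there was 1 peak, at chr19:41351120-41351202 on the plus strand within the TGFB1 span. It was listed in control replicate 1 only, at percentile 4.17.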
